A study of Mus musculus with 11 samples.

Results

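The effect of a high fat sugar (HFS) diet on hepatocytes with intact Xbp1 was read from 6 of the 11 hepatocyte RNA-seq libraries of the series, 3 from chow-fed and 3 from HFS-fed Xbp1 fl/fl mice, chosen by the group that the sample labels give. Both groups were adult male Xbp1 fl/fl mice on a C57BL/6 background, labelled as genotype control, in which the floxed Xbp1 alleles are not deleted. Mice in the control arm ate regular chow and drank water, and mice in the other arm ate a Western diet and drank water with fructose and glucose, and feeding lasted at most 6 weeks. The hepatocytes were purified on Percoll, a density gradient that removes dead and non-parenchymal cells, and their RNA was sequenced. Per the labels, chow libraries hold RNA of 1 mouse each and HFS libraries RNA pooled from 2 mice, which means that the spread between chow libraries is that of single animals and the spread between HFS libraries is that of pools. The 5 other libraries came from Xbp1 LKO mice, in which Cre under the albumin promoter deletes Xbp1 in hepatocytes, and they entered the common fit and the comparison of genotypes at the end.

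Cholesterol is built from acetyl-CoA through mevalonate, farnesyl pyrophosphate and squalene, and the liver is a main site of this pathway. The genes of its enzymes are activated by SREBP2, a membrane-bound transcription factor that INSIG proteins hold in the endoplasmic reticulum when sterols are plentiful. Oxysterols in turn activate the liver X receptors (LXR), which raise transporters that move cholesterol into bile and plasma, and a diet rich in fat and sugar also acts on SREBP1 and ChREBP, the regulators of fatty acid synthesis.

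The 6 libraries held 19515273 to 22573249 counts each. Expression is given below as CPM, counts divided by the library total scaled with edgeR's TMM factors, and a change is given as the log2 fold change of HFS minus chow with its standard error from edgeR's quasi-likelihood test over all 11 libraries. Of 54232 gene identifiers, 13303 passed the filter on low counts, and a gene was called at a Benjamini-Hochberg adjusted p under 0.05. The summed level of 21 hepatocyte markers, Alb and Apob among them, was 176246, 200259 and 204025 CPM in the chow libraries and 155983, 156295 and 169018 CPM in the HFS libraries, lower in every HFS library. The markers did not fall as a set, as their median log2 fold change was -0.019. Of the 21, 10 were above 0 and 11 below, against 48.8% and 51.1% of all genes tested. Alb alone took 8.06% to 10.9% of the counts on chow and 5.88% to 7.42% after HFS feeding, and the part of this difference in the results below was not tested. Chow library 1 stood apart in markers of other liver cells, with a summed 102 CPM over 16 Kupffer cell and macrophage markers against 24.4 and 24.9 CPM in the other chow libraries and 45.5 to 65.4 CPM in the HFS libraries. In bulk libraries, fewer cells of a type and less RNA per cell cannot be told apart.

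After HFS feeding, genes of cholesterol synthesis were lower, and the sterol exporters Abcg5, Abcg8 and Abca1 were among the genes that rose. Of the 13303 genes tested, 57 were called (0.428%), 18 higher (0.135%) and 39 lower (0.293%) after HFS feeding. That more genes were called lower depended on the filter, without which 251 were called higher and 248 lower. In all 57 the 3 HFS libraries lay outside the range of the 3 chow libraries, which was so for 13.7% of the genes tested. The median log2 fold change of all genes tested was -0.0056, and 1190 genes (8.95%) had an unadjusted p under 0.05. Enzymes of sterol synthesis were 15 of the 39 called lower, and 24 lower calls were other genes. At least a 2-fold change was fitted for 24 of the genes called lower and 11 of those called higher. DESeq2 called 175 of 14598 genes (1.2%), 56 of the 57 among them.

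Many calls depended on single libraries. Of the 57 genes, 25 were still past the threshold without chow library 1, 11 without chow library 2, 33 without chow library 3, 25 without HFS library 1, 13 without HFS library 2 and 6 without HFS library 3. Sqle, Mvd, Msmo1, Hmgcs1 and Pmvk, all enzymes of sterol synthesis, were called in all 6 of these fits, and 13 genes were called in none of them. The sign of the change was the same in all 57 genes under every one of the 14 alternative settings.

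**Figure D1:**
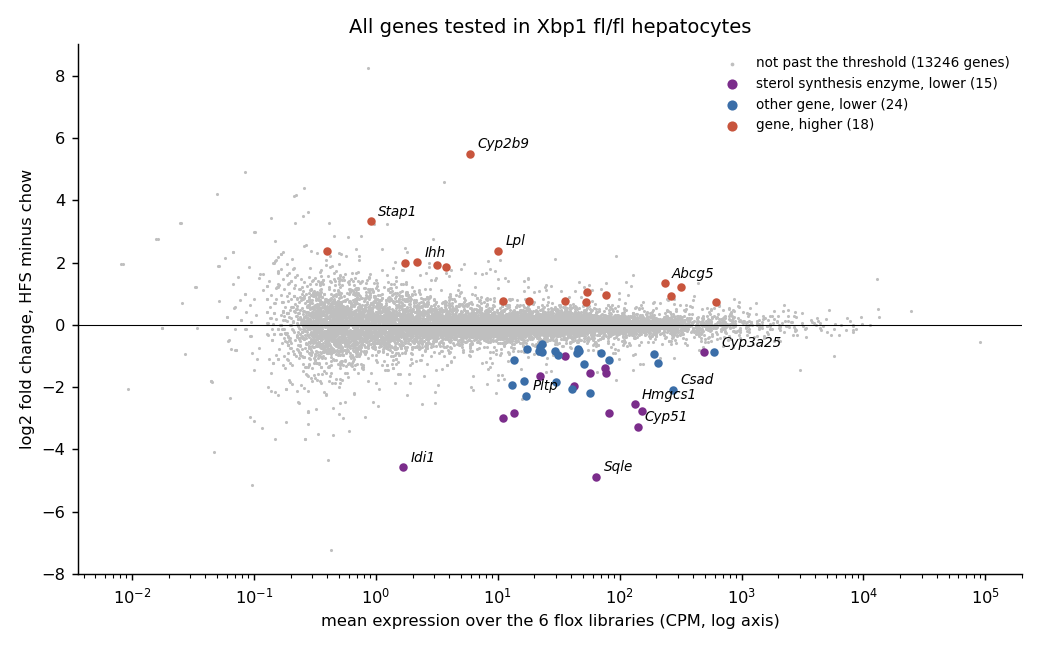
Log2 fold change of HFS minus chow (vertical axis) against mean CPM over the 6 flox libraries (horizontal log axis), with each point a gene and the 57 called genes coloured by group. The 15 sterol synthesis enzymes called lower reach down to -4.89 (Sqle), and the highest call is Cyp2b9 at 5.49.

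All 22 enzymes of the list, which runs from acetyl-CoA to cholesterol and includes Ggps1 of the branch to protein prenylation, had a log2 fold change below 0, against 51.1% of all genes tested. Their median was -1.59, and 15 of the 22 (68.2%) were called lower, against 0.293% of all genes. In 18 of the 22 every HFS library lay below every chow library, against 7.34% of all genes. Within the chow group, chow library 1 was the highest in 19 of the 22 enzymes and chow library 3 the lowest in 17, with summed levels of 4743, 3754 and 2972 CPM in chow libraries 1, 2 and 3. The HFS libraries, each a pool of 2 mice, lay closer together, at 1647, 1665 and 1598 CPM. The part of pooling in this was not tested. Without chow library 1 the median was -1.40 and 11 enzymes were called, and over the 6 fits that left out 1 library the median ran from -1.85 to -1.40 and the enzymes called from 5 to 15.

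Of the 9 enzymes of the mevalonate branch, 7 were called lower, against 0.293% of all genes tested, and the median log2 fold change was -1.98. Hmgcs1, the synthase that makes HMG-CoA, had 339, 199 and 145 CPM on chow and 37.8, 33.6 and 44.3 CPM after HFS feeding. All HFS libraries were far below the lowest chow library, and the log2 fold change was -2.56 (standard error 0.26, edgeR adjusted p = 0.0033).

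The kinases that follow were lower as well. Mvk (mevalonate kinase) had 46.3, 35.8 and 19.2 CPM on chow and 9.43, 13.6 and 9.65 CPM after HFS feeding, with the lowest chow library close to the highest HFS library. Its log2 fold change was -1.63 (edgeR adjusted p = 0.032), and the call was kept only without chow library 3. Pmvk (phosphomevalonate kinase) had 80.4, 62.9 and 58.8 CPM on chow and 20.8, 15.6 and 14.7 CPM after HFS feeding, a clear separation with a log2 fold change of -1.98 (edgeR adjusted p = 0.0033).

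Mvd, which decarboxylates mevalonate pyrophosphate, had 29.0, 15.7 and 14.2 CPM on chow and 2.81, 2.09 and 2.40 CPM after HFS feeding. Its log2 fold change of -3.01 (standard error 0.29) was called in every fit. Idi1, the isomerase that makes dimethylallyl pyrophosphate, is on chromosome 13 from 8885501 to 8892451 of GRCm38. It was rare in all libraries, with 4.80, 2.43 and 2.49 CPM on chow and 0.14, 0.15 and 0.098 CPM after HFS feeding. The HFS libraries held 3, 3 and 2 reads of Idi1, so its fold rests on 8 counts against 179. That is a ratio of pooled counts of 24.3 lower, with a 95% exact interval from 12.1 to 57.2 that covers counting error only. Its call (edgeR adjusted p = 0.019) was lost in all fits that left out 1 library except that without chow library 3, with an adjusted p of up to 0.13. Fdps, which makes farnesyl pyrophosphate, had 32.7, 21.4 and 17.6 CPM on chow and 3.62, 3.72 and 2.79 CPM after HFS feeding (log2 fold change -2.82, edgeR adjusted p = 0.01). Its call was lost without HFS library 3 (adjusted p = 0.082). Acat2, the cytosolic thiolase at the start of the pathway, changed least among the called enzymes of this branch (log2 fold change -0.99, edgeR adjusted p = 0.019), and kept its call only without chow library 3 (adjusted p up to 0.113). Ggps1, which leads to protein prenylation and not to sterols, had 7.34, 6.30 and 9.61 CPM on chow and 7.48, 7.79 and 5.49 CPM after HFS feeding, and the groups overlapped.

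Sqle, the squalene epoxidase and a rate-limiting enzyme, showed the largest fall of all called genes. It lies on chromosome 15 from 59315077 to 59331192 of GRCm38, and had 187, 116 and 71.3 CPM on chow and 3.19, 7.13 and 2.35 CPM after HFS feeding. The group means were 125 and 4.22 CPM, and the log2 fold change was -4.89 (standard error 0.53, edgeR adjusted p = 0.0033). It was called in every fit that left out 1 library, with a log2 fold change from -5.49 to -4.47.

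The C4 and C14 demethylation steps after lanosterol followed. Cyp51, the lanosterol demethylase, had 312, 226 and 225 CPM on chow and 37.5, 21.5 and 19.8 CPM after HFS feeding (log2 fold change -3.27, edgeR adjusted p = 0.0051). Msmo1, the methylsterol monooxygenase, had 381, 237 and 181 CPM on chow and 41.5, 33.7 and 42.0 CPM after HFS feeding (log2 fold change -2.77, edgeR adjusted p = 0.0033). Nsdhl, the decarboxylating sterol dehydrogenase on chromosome X, had 174, 140.1 and 113 CPM on chow and 25.7, 18.7 and 15.9 CPM after HFS feeding (log2 fold change -2.82, edgeR adjusted p = 0.01). In these 3 genes no HFS library came near a chow library. Hsd17b7, the reductase of the same complex, fell by 1.38 on the log2 scale (edgeR adjusted p = 0.008), and Erg28, a scaffold of this complex that was not in the list of enzymes, had a log2 fold change of -0.92 (edgeR adjusted p = 0.014). Without HFS library 3 the adjusted p was 0.052 for Cyp51 and Hsd17b7, 0.082 for Nsdhl and 0.11 for Erg28, and Nsdhl was also lost without HFS library 2, and Erg28 without chow library 2 or HFS library 2.

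Fdft1 (squalene synthase) and Lss (lanosterol synthase) both had a log2 fold change of -1.56 (edgeR adjusted p = 0.01 and 0.013), with 77.7 to 150.0 CPM on chow and 38.2 to 40.1 CPM after HFS feeding for Fdft1. Both calls were lost without chow library 2, HFS library 2 or HFS library 3. Sc5d, a late desaturase, had 587, 651 and 668 CPM on chow and 385, 339 and 318 CPM after HFS feeding (log2 fold change -0.87, edgeR adjusted p = 0.044), and was called in none of the fits that left out 1 library (adjusted p 0.079 to 0.226). Tm7sf2 and Dhcr7, late reductases, did not overlap between the groups but missed the threshold in edgeR (log2 fold change -1.46 and -1.77, adjusted p = 0.052 and 0.066) and passed it in DESeq2, which called 17 of the 22 enzymes. Lbr and Ebp overlapped between the groups, with log2 fold changes of -0.56 and -0.31.

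**Figure D2:**
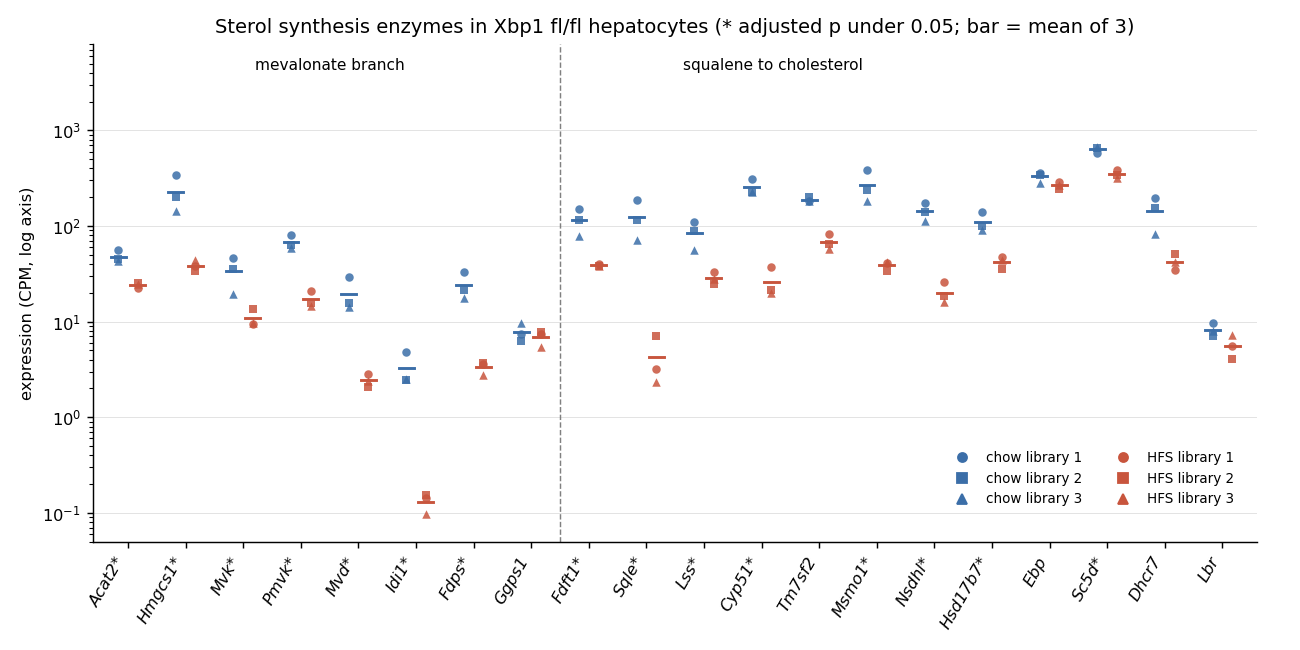
Expression in CPM (log axis) of 20 sterol synthesis enzymes in pathway order, with a point for each of the 3 chow and 3 HFS libraries and a bar for the group mean. The HFS libraries lie below the chow libraries without overlap in 17 genes, and chow library 1 (circles) is the highest chow library in 17.

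The promoters of 4 of these enzymes and 2 shared promoters are shown because the genes moved together and the letters near their starts can be compared. Each is the sequence of GRCm38.p6 before the start that RefSeq annotates, 5′ to 3′ on the strand of the gene or, for the pairs, on the plus strand. Capitals mark CCAAT, the box that the factor NF-Y binds, read on either strand (ATTGG on the other), and TCACNCCAC, a form of the sterol regulatory element, also searched on either strand. The motifs do not overlap in these sequences. Gene positions elsewhere are from GENCODE, which starts some of these genes further upstream, so that 105 bases of the Idi1 window, 49 of the Cyp51 window and 33 of the Mmab to Mvk window, on the side of Mmab, lie inside the GENCODE gene, with all marked letters of Idi1 and Cyp51 in that stretch. The whole Abcg5 to Abcg8 window lies inside the GENCODE gene of Abcg8.
Hmgcs1 (chr13:119690101-119690350, plus strand): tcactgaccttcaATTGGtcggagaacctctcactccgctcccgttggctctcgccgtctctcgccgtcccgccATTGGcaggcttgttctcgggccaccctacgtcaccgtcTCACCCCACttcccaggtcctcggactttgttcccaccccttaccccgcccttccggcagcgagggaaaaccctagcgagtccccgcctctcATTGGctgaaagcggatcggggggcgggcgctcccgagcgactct
Idi1 (chr13:8885356-8885605, plus strand): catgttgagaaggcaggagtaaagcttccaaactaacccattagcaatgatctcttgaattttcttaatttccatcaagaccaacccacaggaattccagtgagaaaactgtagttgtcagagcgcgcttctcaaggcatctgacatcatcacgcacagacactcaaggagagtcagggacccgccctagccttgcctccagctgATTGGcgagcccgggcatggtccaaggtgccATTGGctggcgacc
Cyp51 (chr5:4104698-4104947, minus strand): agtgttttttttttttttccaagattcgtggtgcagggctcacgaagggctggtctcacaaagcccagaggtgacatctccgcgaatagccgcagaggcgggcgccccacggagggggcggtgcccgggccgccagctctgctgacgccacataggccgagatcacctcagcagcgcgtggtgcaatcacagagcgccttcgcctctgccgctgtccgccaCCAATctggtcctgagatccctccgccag
Nsdhl (chrX:72918271-72918520, plus strand): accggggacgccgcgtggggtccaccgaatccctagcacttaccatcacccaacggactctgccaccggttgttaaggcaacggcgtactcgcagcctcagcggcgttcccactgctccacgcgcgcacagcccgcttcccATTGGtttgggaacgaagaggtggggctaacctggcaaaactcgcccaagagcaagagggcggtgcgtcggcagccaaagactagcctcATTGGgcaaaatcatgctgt
Mmab to Mvk (chr5:114444028-114444268, plus strand): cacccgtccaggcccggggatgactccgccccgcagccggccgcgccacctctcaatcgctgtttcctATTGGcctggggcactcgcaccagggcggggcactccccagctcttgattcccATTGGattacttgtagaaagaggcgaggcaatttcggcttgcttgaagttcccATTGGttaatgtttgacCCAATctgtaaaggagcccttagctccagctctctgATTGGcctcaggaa
Abcg5 to Abcg8 (chr17:84683012-84683120, plus strand): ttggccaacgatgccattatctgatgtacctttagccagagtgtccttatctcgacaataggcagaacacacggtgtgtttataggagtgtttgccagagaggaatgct

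CCAAT was found in the 250 bases before the start of 11 of the 12 called sterol enzymes that have an entry in the promoter table (91.7%), against 40.6% of the genes tested that have one. Among all called genes with an entry, it was found in 25 of 34 called lower (73.5%), these enzymes included, and 2 of 10 called higher (20%). TCACNCCAC was found in 1 of the 12, Hmgcs1 (8.33%), against 1.37% of the genes tested, and starts 137 bases before the annotated start there. It was also found in 1 of the 10 genes called higher, Ihh (10%), and in 2 of the 34 called lower (5.88%), Hmgcs1 included. The 241 bases between the RefSeq starts of Mmab and Mvk, which are transcribed away from each other, hold 5 copies of CCAAT, and the 109 bases between the RefSeq starts of Abcg5 and Abcg8 hold neither motif. Mmab, which makes the adenosyl form of vitamin B12, was lower in parallel with its neighbour Mvk, with 53.4, 42.2 and 28.0 CPM on chow and 20.9, 20.6 and 21.9 CPM after HFS feeding (log2 fold change -0.96, edgeR adjusted p = 0.049). Its call was kept only without chow library 3, with an adjusted p of up to 0.226 otherwise. These matches describe letters, and binding of any factor was not measured.

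Among the 15 genes of SREBP control and lipoprotein uptake, 2 were called lower, against 0.293% of all genes tested. None was called higher, against 0.135% of all genes tested, and the median log2 fold change was -0.051. One of the genes called lower was Tmem97, a sterol-regulated membrane protein, which had 62.2, 63.1 and 52.0 CPM on chow and 32.4, 36.5 and 30.2 CPM after HFS feeding (log2 fold change -0.84, edgeR adjusted p = 0.01). Its call was lost without chow library 2 or HFS library 3 (adjusted p = 0.082 without the latter).

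Insig1, the sterol sensor that is itself an SREBP target, had 244, 204 and 213 CPM on chow and 98.3, 72.9 and 102 CPM after HFS feeding, without overlap (log2 fold change -1.27, edgeR adjusted p = 0.066), and was past the threshold in DESeq2. Srebf2, which encodes SREBP2, had a log2 fold change of -0.81 (edgeR adjusted p = 0.247). Srebf1, which encodes SREBP1, lay the other way without overlap, at 318, 260.1 and 162 CPM on chow and 390.0, 599 and 905 CPM after HFS feeding (log2 fold change 1.36, standard error 0.41, edgeR adjusted p = 0.309).

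Of 12 LXR targets and genes of cholesterol export, 3 were called higher and 1 lower, against 0.135% and 0.293% of all genes tested. Their median log2 fold change was 0.48. Every HFS library was above every chow library in 6 of the 12, against 6.33% of all genes tested. Abcg5 and Abcg8 encode the subunits of the transporter that secretes sterols into bile, and lie head to head on chromosome 17, where the annotated Abcg8 (84676302 to 84700333) reaches into Abcg5 (84658234 to 84683011) on the other strand. Abcg5 had 94.4, 143 and 160.4 CPM on chow and 276, 335 and 398 CPM after HFS feeding. Abcg8 had 142, 225 and 204 CPM on chow and 368, 413 and 551 CPM after HFS feeding. In both genes all HFS libraries exceeded all chow libraries, and chow library 1 was the lowest. Their log2 fold changes were 1.34 (standard error 0.25) and 1.22 (standard error 0.23), with an edgeR adjusted p of 0.049 for each.

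Abca1, which loads cholesterol onto apolipoprotein A1, had 176, 195 and 173 CPM on chow and 321, 338 and 368 CPM after HFS feeding (log2 fold change 0.92, standard error 0.17, edgeR adjusted p = 0.049). The replicates were tight in both groups. Leaving out any 1 of the 6 libraries ended the call of all 3 transporters, with adjusted p of 0.068 to 0.226 for Abcg5, 0.09 to 0.228 for Abcg8 and 0.128 to 0.228 for Abca1. Abcg1 and Scarb1, other cholesterol transporters, lay above chow without overlap (log2 fold change 1.67 and 0.84, edgeR adjusted p = 0.188 and 0.126) and were past the threshold in DESeq2. Pltp, a phospholipid transfer protein also known as an LXR target, went the other way, with 26.0, 24.9 and 33.7 CPM on chow and 7.67, 4.38 and 5.34 CPM after HFS feeding. It fell by 2.28 on the log2 scale (standard error 0.35, edgeR adjusted p = 0.022), a call lost without chow library 2 or 3 or HFS library 2 or 3 (adjusted p up to 0.139). The LXR genes themselves, Nr1h3 and Nr1h2, had log2 fold changes of 0.047 and -0.0046.

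**Figure D3:**
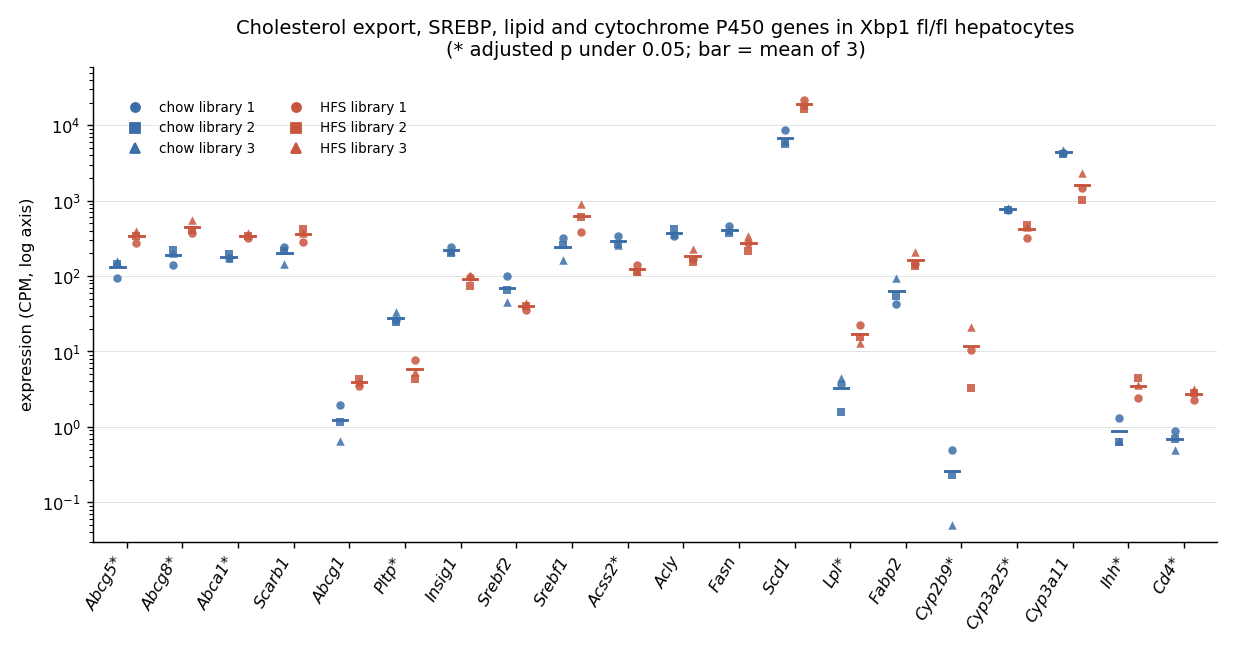
Expression in CPM (log axis) of 20 genes of cholesterol export, SREBP control, lipid synthesis and uptake and cytochrome P450s, with a point for each library and a bar for the mean of 3. Abcg5, Abcg8, Abca1, Lpl, Cyp2b9, Ihh and Cd4 are called higher and Pltp, Acss2 and Cyp3a25 lower, as marked by asterisks.

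Of 13 genes of de novo lipogenesis, the synthesis of fatty acids from acetyl-CoA, 1 was called lower, against 0.293% of all genes tested. The median log2 fold change was -0.52. Acss2, which makes cytosolic acetyl-CoA from acetate, had 336, 267 and 259 CPM on chow and 142, 112 and 117 CPM after HFS feeding (log2 fold change -1.22, standard error 0.22, edgeR adjusted p = 0.045). The groups were far apart, though none of the 6 fits that left out 1 library kept the call (adjusted p 0.068 to 0.226). Acly, the ATP citrate lyase, had 340, 427 and 365 CPM on chow and 167, 152 and 227 CPM after HFS feeding (log2 fold change -1.05, edgeR adjusted p = 0.175) and was past the threshold in DESeq2. Fasn, the fatty acid synthase, had 464, 375 and 402 CPM on chow and 272, 217 and 337 CPM after HFS feeding (log2 fold change -0.59, edgeR adjusted p = 0.442).

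Scd1, the stearoyl-CoA desaturase, differed in direction from these genes, with 8541, 5563 and 6259 CPM on chow and 21770, 16638 and 18424 CPM after HFS feeding. No library overlapped, but the log2 fold change of 1.48 carried a standard error of 0.45 and was not called (edgeR adjusted p = 0.312, DESeq2 adjusted p = 0.165). Elovl5, an elongase of polyunsaturated fatty acids, was the next of the 13 desaturases and elongases tested (log2 fold change 0.58, edgeR adjusted p = 0.477). None of the 13 was called, against 0.428% of all genes tested. Acsl3, an acyl-CoA synthetase of lipid droplets that was in no list, had a log2 fold change of -0.87 (edgeR adjusted p = 0.035) and was called in none of the fits that left out 1 library (adjusted p 0.077 to 0.144).

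Lpl, the lipase that frees fatty acids from lipoprotein triglyceride, was the only called gene of 17 of lipid uptake, against 0.428% of all genes tested called. The median log2 fold change of the 17 was 0.14. Lpl had 3.70, 1.56 and 4.48 CPM on chow and 22.7, 15.5 and 12.8 CPM after HFS feeding. Every HFS library was above the highest chow library (log2 fold change 2.38, standard error 0.44, edgeR adjusted p = 0.049), and the call was lost without any 1 of the 6 libraries (adjusted p 0.096 to 0.17). Fabp2, an intestinal-type fatty acid binding protein, had 42.5, 54.4 and 94.3 CPM on chow and 143, 137 and 211 CPM after HFS feeding (log2 fold change 1.36, edgeR adjusted p = 0.072, past the threshold in DESeq2).

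Genes of fatty acid oxidation, triglyceride synthesis, lipid droplets, lipoprotein assembly and bile acids held no gene called by edgeR, against 0.428% of all genes tested. DESeq2, which called 1.2% of its genes, called 1 of them, the lipid droplet enzyme Hsd17b11 (log2 fold change 0.80, DESeq2 adjusted p = 0.037, edgeR adjusted p = 0.242). The 23 genes of oxidation and ketogenesis had a median log2 fold change of 0.048, between -0.13 and 0.48, and Cpt1a, which admits long-chain fatty acids to mitochondria, was at 0.33 (edgeR adjusted p = 0.489). Medians were 0.21 for 13 genes of triglyceride synthesis, 0.0074 for 17 lipid droplet genes, -0.019 for 15 genes of lipoprotein assembly, 0.052 for 12 of bile acid synthesis and 0.097 for 13 of bile acid transport. Apoa4, an apolipoprotein of lipid transport, had 46.2, 109 and 37.0 CPM on chow and 144, 283 and 152 CPM after HFS feeding, without overlap (log2 fold change 1.59, standard error 0.48, edgeR adjusted p = 0.305).

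Cyp2b9, a cytochrome P450 known for higher expression in female liver, showed the largest rise. It lies on chromosome 7 from 26173411 to 26210661 of GRCm38, and had 0.50, 0.23 and 0.050 CPM on chow and 10.4, 3.26 and 21.3 CPM after HFS feeding. The chow libraries held 9, 4 and 1 reads of it against 219, 64 and 434, and the HFS libraries themselves spread widely (log2 fold change 5.49, standard error 0.79, edgeR adjusted p = 0.017). The call was lost without chow library 2 or 3 or HFS library 3, with an adjusted p of up to 0.091. Of 10 female-biased liver genes tested it was the only one called, against 0.428% of all genes tested, and the median of that list was -0.24. Cyp2b genes are close paralogs, and short reads can be split between them.

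Among 25 genes controlled by the drug receptors CAR and PXR, Cyp2b9 was called higher and Cyp3a25 lower, against 0.428% of all genes tested called. Of the 25, 14 had an unadjusted p under 0.05 in edgeR, against 8.95% of all genes tested, and the median log2 fold change was 0.059. Cyp3a25 had 758, 754 and 798 CPM on chow and 325, 469 and 453 CPM after HFS feeding (log2 fold change -0.89, standard error 0.16, edgeR adjusted p = 0.049), and was called in none of the fits that left out 1 library (adjusted p 0.095 to 0.168). Cyp3a11, a main drug-metabolizing P450, had 4350, 4144 and 4715 CPM on chow and 1478, 1009 and 2357 CPM after HFS feeding (log2 fold change -1.45, edgeR adjusted p = 0.126), and Gsta1, a glutathione transferase, had 0.44, 2.83 and 1.10 CPM and 0.14, 0.15 and 0.24 CPM (log2 fold change -2.97, edgeR adjusted p = 0.095). Both were below chow without overlap and past the threshold in DESeq2. Cyp2b10, the common marker of CAR activity, had 3.75, 5.95 and 2.24 CPM on chow and 7.34, 23.3 and 20.1 CPM after HFS feeding (log2 fold change 2.09, edgeR adjusted p = 0.215).

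Outside lipid metabolism, Rdh11, a retinol dehydrogenase, had 109.9, 84.1 and 90.0 CPM on chow and 24.0, 19.2 and 18.7 CPM after HFS feeding (log2 fold change -2.20, standard error 0.25, edgeR adjusted p = 0.0051). The separation was clear, and the call was missed only without HFS library 3 (adjusted p = 0.052). Csad, which makes the taurine precursor hypotaurine, had 314, 426 and 588 CPM on chow and 154, 75.1 and 84.6 CPM after HFS feeding (log2 fold change -2.08, edgeR adjusted p = 0.018), and lost its call without chow library 2, HFS library 2 or HFS library 3 (adjusted p up to 0.13).

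Among the further rises, Ihh, a hedgehog ligand, had 1.32, 0.64 and 0.65 CPM on chow and 2.43, 4.48 and 3.58 CPM after HFS feeding (log2 fold change 2.00, standard error 0.36, edgeR adjusted p = 0.048). It was the only one of 9 tested hedgehog and fibrogenic genes called, against 0.428% of all genes tested. The call was lost without chow library 2 or 3 or HFS library 2 or 3 (adjusted p up to 0.171). Slc17a4, an anion transporter, had 32.7, 33.5 and 39.8 CPM on chow and 85.5, 59.4 and 74.9 CPM after HFS feeding (log2 fold change 1.05, edgeR adjusted p = 0.027), and Cyp2d40, a P450, had 62.3, 52.4 and 44.7 CPM and 105.6, 105.7 and 94.7 CPM (log2 fold change 0.94, edgeR adjusted p = 0.041). The uncharacterized transcripts Gm19619, 1700080G11Rik and 1190002N15Rik had log2 fold changes of 1.92, 1.85 and 0.77. Each of these 5 genes was lost in 4 or 5 of the fits that left out 1 library, HFS library 3 among those left out in all of them, with adjusted p of up to 0.226.

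In all, 23 called genes fell outside the rule for naming genes, with Erg28, Mmab and Acsl3 above among them. Those given here were chosen after their values were seen. The 17 lower ones had log2 fold changes from -1.93 to -0.61, led by Aldoc (-1.93), a brain-type aldolase, Cyp3a59 (-1.85) and Ugt1a9 (-1.79), a glucuronosyltransferase. Ugt1a9 shares exons with the other Ugt1a genes, and how reads of shared exons were counted is not settled. The 6 higher ones had log2 fold changes from 0.73 to 3.32. Stap1, an adaptor of immune receptors, led them with 0.11, 0.17 and 0.20 CPM on chow and 1.48, 1.53 and 2.01 CPM after HFS feeding (log2 fold change 3.32, edgeR adjusted p = 0.014), on 2 to 4 reads in the chow libraries. Bcl6b, a transcriptional repressor, rested on 7 reads in the chow group and 41 in the HFS group, a ratio of 5.39 with a 95% exact interval from 2.39 to 14.2 that covers counting error only, and was the only one of the 57 that DESeq2 did not call (adjusted p = 0.088). Aldoc, Cyp3a59, Ugt1a9 and Stap1 lost their calls in 3 to 5 of the fits that left out 1 library and Bcl6b in all 6, with adjusted p of up to 0.236.

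Gulo, the last enzyme of vitamin C synthesis in mice, was called from a high level and a small change, with 478, 434 and 486 CPM on chow and 844, 699 and 786 CPM after HFS feeding (log2 fold change 0.74, edgeR adjusted p = 0.039). It was also chosen after its values were seen, and was called in none of the fits that left out 1 library (adjusted p 0.068 to 0.171).

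Xbp1 itself was present in all 6 libraries, at 194, 200.3 and 221 CPM on chow and 301, 295 and 242 CPM after HFS feeding. The HFS libraries were above the chow libraries, but the log2 fold change of 0.44 (standard error 0.15) was not called (edgeR adjusted p = 0.395). None of the 30 genes of the unfolded protein response, the program by which XBP1 and its partners answer misfolded protein, was called, against 0.428% of all genes tested. Of them 21 were below 0, against 51.1% of all genes tested, and the median was -0.15. That median was -0.019 without chow library 3, -0.035 without HFS library 2 and -0.31 without HFS library 1. Chac1, a target of the ATF4 arm, had 6.23, 8.03 and 4.23 CPM on chow and 11.6, 16.0 and 13.9 CPM after HFS feeding (log2 fold change 1.17, edgeR adjusted p = 0.109) and was past the threshold in DESeq2, while Atf4 was at -0.34 (edgeR adjusted p = 0.30).

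Some lists leaned in 1 direction without a gene called by edgeR, which called 0.428% of all genes tested. Of 18 NRF2 antioxidant genes, 17 were below 0, against 51.1% of all genes tested, with a median of -0.35. An unadjusted p under 0.05 in edgeR was found for 9 of them, against 8.95% of all genes tested. Hmox1, the heme oxygenase, had 11.7, 11.6 and 10.4 CPM on chow and 6.67, 5.55 and 5.98 CPM after HFS feeding (log2 fold change -0.89, edgeR adjusted p = 0.336). DESeq2 called 2 of the 18, the glutathione transferases Gsta1 and Gsta2 (log2 fold change -2.97 and -1.62, adjusted p = 0.0035 and 0.029). Of 15 pericentral genes, expressed around the central vein, 13 were above 0 (48.8% of all genes tested) with a median of 0.40, among them Lect2 (0.53) and Lgr5 (0.85), while Gstm3 lay the other way (-0.92). Of 15 periportal genes, expressed at the portal end, 12 were below 0, against 51.1% of all genes tested, with a median of -0.35. Etnppl (-0.97) and Gls2 (-0.71) were among the 12, while Apoa4 lay the other way (1.59). Of 35 interferon-stimulated genes, 27 were above 0, against 48.8% of all genes tested, with a median of 0.24. That median was 0.51 without chow library 1 and 0.098 without chow library 3. Bst2, an antiviral membrane protein, had a log2 fold change of 0.35 (edgeR adjusted p = 0.326). Lists of glucose and fructose metabolism, insulin and growth hormone signaling, PPARA targets, acute phase proteins, antigen presentation, the circadian clock, immediate early genes, male-biased genes, RIDD targets of IRE1 and the cell cycle had medians from -0.18 to 0.16. These medians moved with single libraries. That of acute phase proteins was -1.001 without HFS library 2, with summed levels of 67331 CPM in chow library 1 and 68376 CPM in HFS library 2 against 26733 to 34840 CPM in the others. That of PPARA targets was 0.14 without chow library 3, and those of immediate early and cell cycle genes were 0.37 and -0.35 without HFS library 3. Among their members, Khk, the first enzyme of fructose breakdown, had a log2 fold change of 0.50 without overlap (edgeR adjusted p = 0.288, DESeq2 adjusted p = 0.047), and Gadd45b, a stress-induced gene, one of -2.59 on 2.29 CPM or less in every library (edgeR adjusted p = 0.066, DESeq2 adjusted p = 0.0013). DESeq2 also called Foxo1, a transcription factor restrained by insulin (log2 fold change 0.75, adjusted p = 0.027), and Ucp2, a mitochondrial carrier (log2 fold change -1.62, adjusted p = 0.0035), which edgeR did not (adjusted p = 0.18 and 0.16). Of all 39 lists, 10 held a gene called by edgeR and 29 held none, and 18 held a gene called by DESeq2.

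**Figure D4:**
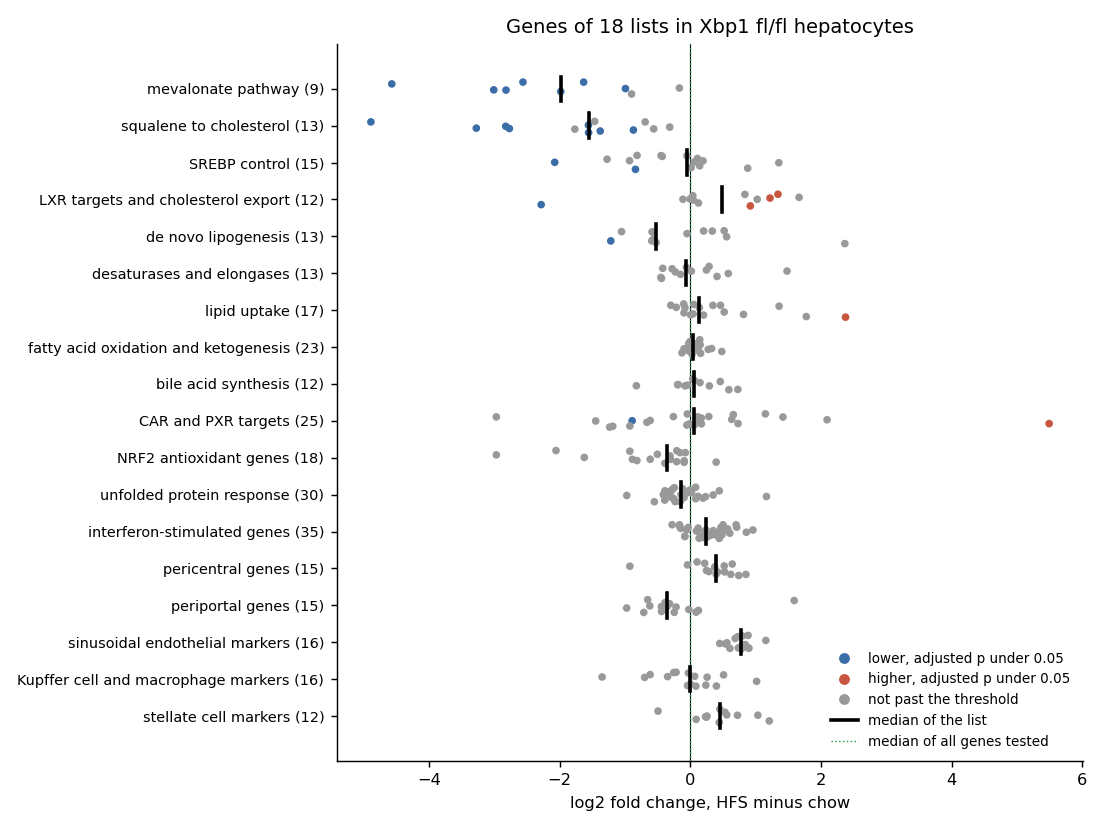
Log2 fold change of HFS minus chow (horizontal axis) for each tested gene of 18 lists, with the number of genes in brackets, the list median as a black bar and called genes in colour. The mevalonate and squalene lists lie at medians of -1.98 and -1.56, while the other 16 lists lie between -0.52 and 0.78.

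Markers of other liver cells were low beside those of hepatocytes but differed between libraries. All 16 sinusoidal endothelial markers were above 0, against 48.8% of all genes tested, with a median of 0.78. None of the 16 was called, against 0.428% of all genes tested. Their summed level was 185, 71.9 and 98.9 CPM on chow and 245, 141 and 211 CPM after HFS feeding, so chow library 1 overlapped with the HFS libraries. Kupffer cell and macrophage markers had a median of -0.012 with 8 of 16 above 0, and 12 stellate cell markers a median of 0.45, with summed levels of 66.1, 19.7 and 24.9 CPM on chow and 62.0, 41.2 and 34.5 CPM after HFS feeding. Without chow library 1 the medians were 1.15 for the Kupffer, 1.199 for the stellate and 1.28 for the endothelial markers, and without chow library 2 they were -0.31, 0.10 and 0.49.

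Acta2 of stellate cells, Cftr of bile duct cells, Ms4a1 and Klrb1c of lymphocytes, Ly6g of neutrophils and Lep of adipocytes were at 0 counts in all 6 libraries. Cd4, listed as a T cell marker, had 0.88, 0.69 and 0.50 CPM on chow and 2.29, 2.80 and 3.18 CPM after HFS feeding (log2 fold change 1.99, standard error 0.35, edgeR adjusted p = 0.042), and lost its call without any 1 of the 6 libraries (adjusted p 0.078 to 0.18). The 12 other lymphocyte markers held at most 2 counts in any library. The endothelial marker sums, higher on average in the HFS libraries with overlap at chow library 1, stand beside the rises of Cd4, Lpl, Ihh, Stap1 and Bcl6b, and their part in these rises was not tested. Chow library 1 had the highest sums of Kupffer and stellate markers and also the most sterol enzyme RNA. Without it the median of the 22 enzymes was -1.40 against -1.59, and 11 were called against 15. All 22 were below 0 in that fit, and 21 without chow library 3. The part of other cells in the levels of these enzymes was not tested.

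Whether the diet effect was particular to intact Xbp1 was tested by its difference from the diet effect in Xbp1 LKO hepatocytes, measured in 3 HFS and 2 chow libraries, and any other chow library of that genotype was not analysed here. No gene passed for this difference in edgeR's quasi-likelihood test (0 genes, smallest adjusted p = 0.085), 816 genes (6.13%) had an unadjusted p under 0.05, and DESeq2 called 31. In Xbp1 LKO hepatocytes 8 genes (0.0601%) were called for diet. Of the 57 genes, 3 were called there too, the sterol enzymes Fdps and Pmvk lower and Cyp2d40 higher, with log2 fold changes of -3.04, -1.63 and 1.29. All 39 genes lower in Xbp1 fl/fl were below 0 in Xbp1 LKO, with a median of -0.70 against -1.38, and 17 of the 18 higher genes were above 0, with a median of 0.90 against 1.28. The share of all genes tested with these signs in Xbp1 LKO was not counted. The 57 genes were chosen by their edgeR adjusted p in Xbp1 fl/fl, so the larger medians there are a description.

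The 22 sterol enzymes were all below 0 in Xbp1 LKO as well, with a median of -1.06. For the difference, 10 of them had an unadjusted p under 0.05 in edgeR, against 6.13% of all genes tested. This count is a description, since 15 of the 22 were called in Xbp1 fl/fl from libraries that also enter the difference. The list was also chosen with earlier results of these data known, and its enzymes moved together between libraries. Hmgcs1 had the lowest p for the difference among the 22, with a log2 fold change of -0.70 in Xbp1 LKO, from 93.3 and 91.4 CPM on chow to 57.3, 58.1 and 55.1 CPM after HFS feeding. The chow-fed Xbp1 LKO libraries were thus below the chow-fed Xbp1 fl/fl libraries, and the HFS-fed ones above theirs. Its difference of diet effects, -1.86, passed in DESeq2 (adjusted p = 0.0021) and not in edgeR (adjusted p = 0.603). Fdft1 (log2 fold change -0.20 in Xbp1 LKO), Ugt1a9 (-0.11) and Ginm1, which encodes a membrane glycoprotein and had a log2 fold change of 0.73 in Xbp1 fl/fl and -0.19 in Xbp1 LKO, were the others of the 57 past the threshold in DESeq2 (adjusted p = 0.026, 0.037 and 0.0012) and not in edgeR (adjusted p = 0.603, 0.603 and 0.491). Sqle had 35.1 and 35.5 CPM on chow and 8.47, 2.42 and 6.56 CPM after HFS feeding in Xbp1 LKO, a log2 fold change of -2.61 whose difference from -4.89 was not called by either tool (edgeR adjusted p = 0.687, DESeq2 adjusted p = 0.501).

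**Figure D5:**
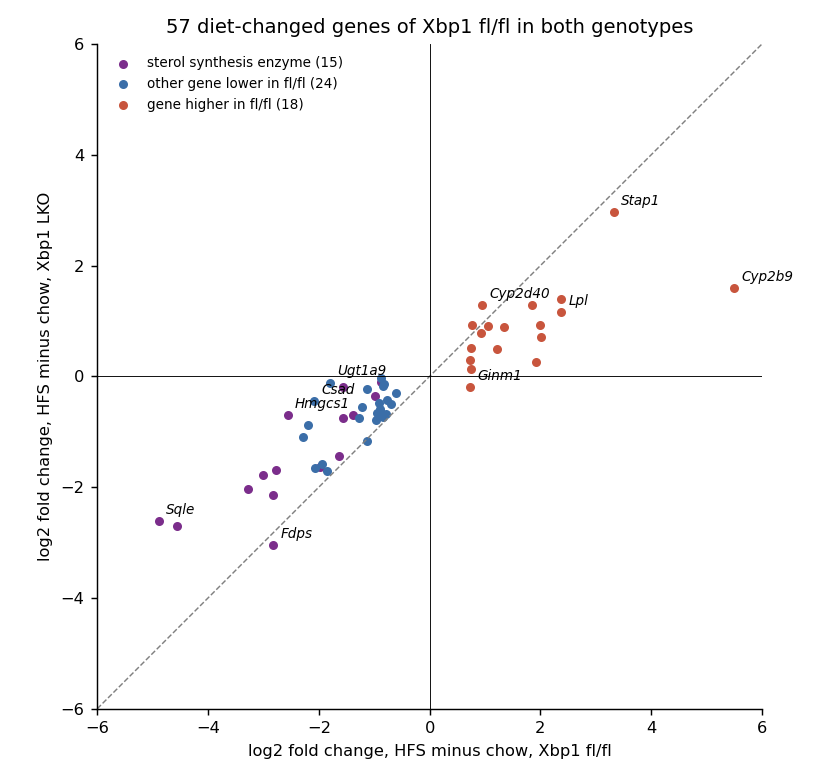
Log2 fold change of HFS minus chow in Xbp1 LKO (vertical axis) against Xbp1 fl/fl (horizontal axis) for the 57 genes called in Xbp1 fl/fl, with the dashed line at equal change. All but Ginm1 lie in the quadrants of equal sign, and no difference between genotypes was called by edgeR.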

How the data were processed

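RNA of isolated hepatocytes was sequenced as single-end reads of 50 bases, and the authors deposited whole-number counts per Ensembl gene for each of 11 libraries, without normalization. The study's methods name kallisto and tximport, while the submitters' processing notes list cutadapt 1.13, STAR, HTSeq 0.6.1p1, DESeq2 and mm10, so which of them made the counts is not settled. All 37 mitochondrially encoded genes were at 0 in every library, and Ddit3 was carried by 2 identifiers. Of 54232 identifiers, 54165 were found in GENCODE M21 (GRCm38), which gave symbols and positions. The kit is named as stranded mRNA in the study's methods and as total RNA in the labels.

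Groups came from the sample labels. The 6 flox libraries held 19515273 to 22573249 counts. From the counts, edgeR 4.0.16 in R 4.3.3 (filterByExpr, minimum count 10, TMM) fitted a quasi-likelihood model of 4 groups to all 11 libraries, and the contrast was flox HFS minus flox chow with Benjamini-Hochberg adjustment. The standard error is the log2 fold change divided by the square root of F. No replicate pair of a flox group was a repeat of 1 library, as the chi-square of their counts over its degrees of freedom was 25.4 to 86.5. Alternatives were DESeq2 1.42.0, limma-voom (limma 3.58.1), other scaling, filters and samples, a replicate block, and each flox library left out in turn. The code was tested on simulated counts.

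The comparison and the 39 gene lists were chosen with earlier results of these data known. Genes named are the 12 largest rises and the 12 largest falls among calls whose groups did not overlap and whose mean reached 1 CPM, called members of the lists, the 3 members of each list described with the smallest p, Xbp1 and cell type markers. Genes outside the rule are named as such, except Erg28, Mmab, Acsl3 and Ginm1, which are also outside it. Other list members are given to complete a pathway. Labels do not say which mice shared a cage or day, so p-values measure the spread between these libraries. The fit shares its estimate of that spread between libraries of single mice and libraries of pools. Promoters are from RefSeq, GRCm38.p6, in a table of 27025 genes, and 3 of the called sterol enzymes (Sqle, Fdps and Fdft1) had no entry in it. Some genes of the lists are not reported here, though they count in the totals of their lists.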

Additional observations from a re-analysis of the deposited data

How the results depend on the processing

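Among the 57 genes, every change kept its sign under the 14 alternatives, and the fits differed in how many genes they called. DESeq2 called 175 genes (69 higher, 106 lower), and leaving out the filter on low counts gave 499 (251 higher, 248 lower), of which 494 had also been tested in the first fit. The share of higher calls thus moved from 31.6% to 50.3% without the filter. The number higher, 18, was 8 with only the 6 flox libraries (38 genes called, 29 of them among the 57). It was 9 with limma-voom (42 called, 40 of them among the 57). RLE size factors gave 44 calls, library totals 58 and a minimum of 1 CPM in 3 flox libraries 53. Same-numbered chow and HFS libraries did not deviate together over all genes (correlations of -0.17, 0.014 and -0.022). These values cannot tell whether such libraries shared a day or cage, which the labels do not give. The replicate block gave 38 calls, 6 of them higher and 34 shared with the 57. It gave 0 calls for the difference between genotypes, where DESeq2 called 31. Over the fits without 1 library, calls ran from 6 to 43, higher calls from 0 to 9, lower calls from 6 to 34 and called sterol enzymes from 5 to 15. List medians over these fits ran from -2.15 to -1.84 (mevalonate), -1.77 to -1.32 (squalene to cholesterol), -0.20 to -0.016 (SREBP control) and 0.33 to 0.54 (LXR and export). They ran from -0.48 to -0.38 (lipogenesis), 0.10 to 0.30 (lipid uptake), -0.019 to 0.13 (CAR and PXR), 0.098 to 0.34 (hedgehog) and -0.43 to 0.035 (female-biased genes). Of the 13 lymphocyte markers only Cd4 was tested, and its log2 fold change ran from 1.80 to 2.21. The median of the CAR and PXR list was below 0 without chow library 1 and that of the female-biased genes above 0 without chow library 3. The cause of these shifts was not tested. With 3 libraries a group and chow libraries of single mice, changes of low genes are the least certain, since Idi1, Stap1 and Bcl6b rest on a few reads in 1 group.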
